A study of Mus musculus with 6 samples.

Results

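Integrin and laminin subunit genes were selected by their symbols from the gene count table: every integrin alpha gene (Itga followed by a number or letters), the integrin beta genes Itgb1 to Itgb8 and the laminin alpha, beta and gamma genes (Lama, Lamb and Lamc followed by a number). The selection held 38 of 53465 rows and 37 symbols, of which 18 were integrin alpha, 8 integrin beta and 11 laminin genes. Itgam was listed under 2 Ensembl identifiers, of which the second had no read in any line, so 37 genes are described. The rule used symbols only, but it was set with earlier results of these data known.

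RNA was sequenced from 3 Myc_Utx lines (labelled 2A, 2B and 2D) and 3 Myc_p53 lines (labelled 1, 2 and 3), all called primary liver cancer cell lines of strain C57BL/6. Both genotypes shared an oncogenic Myc transposon, which was injected through the tail vein of adult female mice together with a plasmid for Cas9 and a guide RNA, so that hepatocytes took up the DNA. The guide was directed at Kdm6a (also called Utx, an H3K27 demethylase) in Myc_Utx and at Trp53 (the gene of the tumour suppressor p53) in Myc_p53. No line with Myc alone was part of the comparison, so a difference between the genotypes cannot be told apart into loss of Kdm6a and loss of Trp53. The study's methods call the lines independent and derived from tumours, grown on collagen-coated plates and passaged until other cell types were no longer seen. Whether each line was a clone, or came from its own tumour and animal, is not given in the sources used here. The Myc_Utx labels 2A, 2B and 2D share a number whose meaning is not given either. Sample sizes below therefore count lines.

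Integrins are surface receptors made of 1 alpha and 1 beta chain that hold cells to the matrix and link it to the actin cytoskeleton. The alpha chain largely sets the ligand: some alpha chains bind collagen, some bind laminin, and others bind proteins that carry the tripeptide RGD, such as fibronectin and vitronectin. Laminins are cross-shaped proteins of the basement membrane, each built of an alpha, a beta and a gamma chain and named by the numbers of its chains. In the liver, bile ducts rest on a laminin-containing basement membrane, whereas the hepatocyte plate has no continuous one.

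Total counts ranged from 4656103 to 5473042 in Myc_Utx and from 5370608 to 6937497 in Myc_p53 lines. Trp53 was at 294, 295 and 276 CPM (counts normalized to library size after TMM scaling) in Myc_Utx 2A, 2B and 2D and at 32.4, 34.5 and 35.8 CPM in Myc_p53 1, 2 and 3 (adjusted p = 0.000488, edgeR quasi-likelihood test), whereas Kdm6a was at 39.7, 45.7 and 49.0 CPM and at 69.5, 64.5 and 42.5 CPM (adjusted p = 0.243). A guide can disrupt a protein without lowering its transcript, so the Kdm6a level does not check that label. The methods name Mll3 (Kmt2c) in place of Kdm6a for these lines, and the labels were followed. The paper's results call the sequenced lines Myc;sgKdm6a. For cell lines from such tumours the paper reports indels in Kdm6a and loss of its protein. Whether the sequenced lines were among those is not stated. Kmt2c had 349, 411 and 389 counts in Myc_Utx 2A, 2B and 2D and 939, 625 and 851 in Myc_p53 1, 2 and 3 (log2 fold change -0.73, adjusted p = 0.0289 in edgeR and 0.242 with offsets for gene length and GC content), so the targeted gene of the Myc_Utx lines cannot be told apart from these transcript levels. Hepatocyte markers were low: Alb, the albumin gene, had 4 to 26 counts per line, and 3 of 10 markers had at most 3 counts in every line. The exceptions were Fgb, a fibrinogen chain, with 6 to 199 counts, and in some Myc_p53 lines Hnf4a (up to 64 counts) and Trf (up to 44 counts). Endothelial markers were at most 3 counts in every line for 6 of 9 genes. Longer genes were relatively lower in Myc_Utx lines, with Spearman's rho of -0.249 between gene length and log2 fold change across 11510 genes, which are not independent replicates.

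Of the 37 genes, 21 passed the filter on low counts and were tested together with all other genes. Lamb2 and Lamb3, which encode laminin beta chains, were lower in Myc_Utx at an adjusted p under 0.05, and no integrin or laminin gene was higher. The 2 genes were 9.52% of the 21, and 7.69% of all 11510 tested genes were lower at this threshold. Lamb3 entered the test only through the Myc_p53 lines, where it is high, so this share is not read against the background. The 0 higher genes stand against 6.99% of all tested genes. Scaling to total counts alone moved the calls over all genes from 885 lower of 1690 to 1009 lower of 1610 and called 3 members, all lower. No member was higher at an unadjusted p under 0.05 in this edgeR fit or at an adjusted p under 0.05 in DESeq2. Itgb8 was higher at an unadjusted p of 0.0456 in DESeq2 and of 0.0382 in edgeR with no filter on low counts. In the filtered edgeR fit, 7 of the 21 were lower at an unadjusted p under 0.05, as were 18.3% of all tested genes, with 16.6% higher. No conclusion about the family is drawn from these counts of calls.

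The sizes of the differences are described by medians, without a test. The log2 fold change (Myc_Utx minus Myc_p53) had a median of -1.04 over the 21 genes, against -0.01 over all genes tested, and 16 of the 21 values were below 0. Its median was -1.63 over 7 laminin genes, -1.21 over 8 integrin alpha genes and 0.00 over 6 integrin beta genes. With offsets for gene length and GC content in the model the median over the 21 genes was -0.94, and again 16 were below 0. The groups did not overlap in 5 of the 21 genes, all lower in Myc_Utx, when 20.9% of all tested genes were separated in that direction and 21.1% in the other. With 3 lines against 3, a two-sided exact permutation test of a single gene cannot give a p under 0.1.

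**Figure D1:**
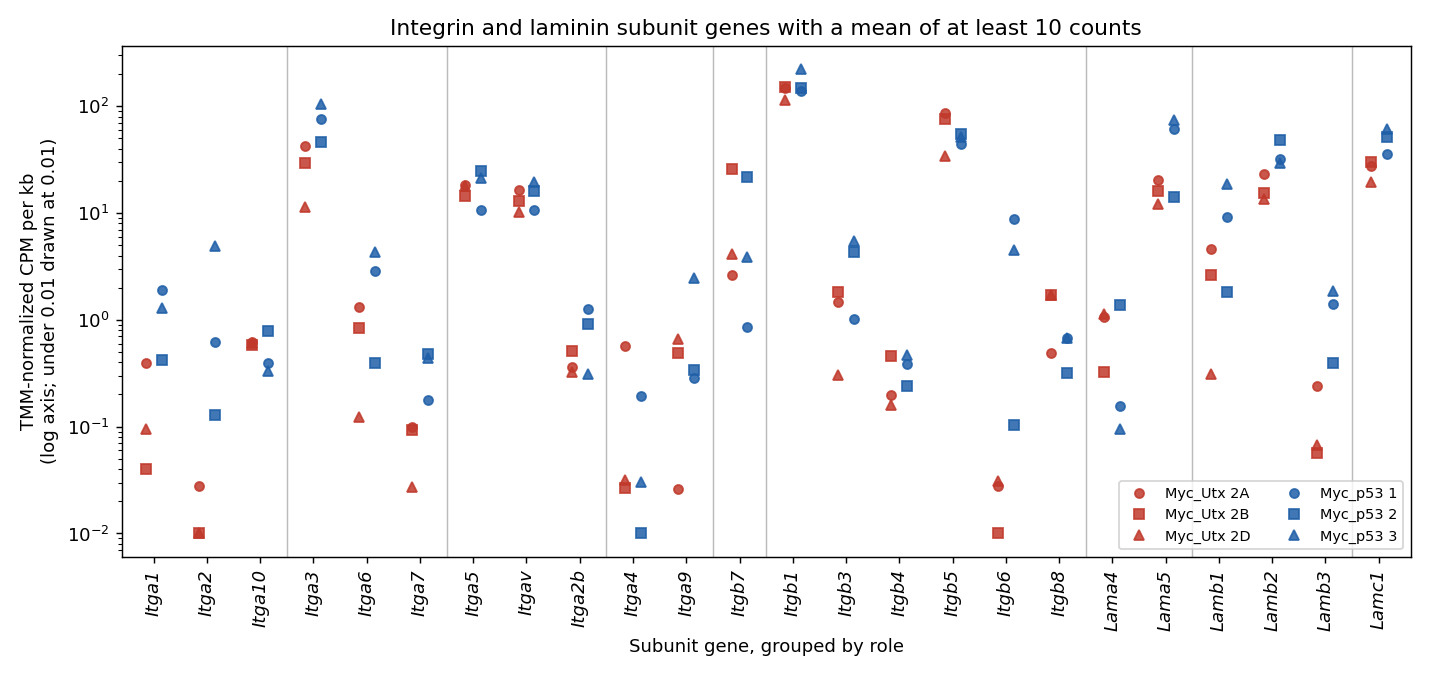
Levels of the subunit genes reported here with a mean of at least 10 counts, as TMM-normalized CPM per kilobase of gene length on a log axis, with 1 point per cell line (red, Myc_Utx; blue, Myc_p53) and vertical lines between role classes. Itgb1, Itgb5, Itga3, Lamc1, Lama5 and Lamb2 were the highest, and the lines of a genotype lie far apart for Itgb6, Itga2 and Lamb1.

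Promoter sequences are shown for Lamb2 and Lamb3, the genes that passed the test, and for Itgb6 and Itga2, whose groups were separated by the largest counted ratios. They are RefSeq promoters (250 bases before to 50 bases after a transcript start, build GRCm38.p6), taken at the outermost start and written 5′ to 3′ on the strand of the gene, with any GC box in capitals. Lamb2 lies at chr9:108479612-108479911 on the plus strand, Lamb3 at chr1:193301744-193302043 on the plus strand, Itgb6 at chr2:60722554-60722853 on the minus strand and Itga2 at chr13:114932051-114932350 on the minus strand.
Lamb2: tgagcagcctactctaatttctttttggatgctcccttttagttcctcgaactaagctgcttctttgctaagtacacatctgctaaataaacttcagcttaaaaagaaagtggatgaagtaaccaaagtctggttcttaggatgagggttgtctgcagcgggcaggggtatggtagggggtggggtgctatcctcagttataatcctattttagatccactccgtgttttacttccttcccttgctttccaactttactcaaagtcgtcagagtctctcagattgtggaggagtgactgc
Lamb3: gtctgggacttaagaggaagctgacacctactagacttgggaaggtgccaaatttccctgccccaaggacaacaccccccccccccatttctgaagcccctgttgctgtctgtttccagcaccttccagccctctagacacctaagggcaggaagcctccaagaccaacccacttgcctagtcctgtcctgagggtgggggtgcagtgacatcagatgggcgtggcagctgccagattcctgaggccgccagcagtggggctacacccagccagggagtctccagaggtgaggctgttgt
Itgb6: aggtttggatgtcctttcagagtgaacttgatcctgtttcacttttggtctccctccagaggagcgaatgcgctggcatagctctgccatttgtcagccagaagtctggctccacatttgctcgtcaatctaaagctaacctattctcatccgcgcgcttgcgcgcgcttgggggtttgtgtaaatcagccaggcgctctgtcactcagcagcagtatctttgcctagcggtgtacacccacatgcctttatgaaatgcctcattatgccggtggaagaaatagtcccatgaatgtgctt
Itga2: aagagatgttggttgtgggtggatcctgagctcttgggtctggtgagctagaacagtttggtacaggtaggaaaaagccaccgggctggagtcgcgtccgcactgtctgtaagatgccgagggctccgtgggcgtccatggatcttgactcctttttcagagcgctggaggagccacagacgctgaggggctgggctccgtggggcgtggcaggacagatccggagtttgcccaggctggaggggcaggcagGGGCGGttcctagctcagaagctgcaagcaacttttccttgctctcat

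Of the 37 genes, 23 had a RefSeq promoter in the table used. Both strands were searched for the GC box GGGCGG, the AP-1 motif TGANTCA, the E-box CACGTG and the TATA motif TATAAA. A GC box stood in 11 of the 23, including Itga2 at 2 bases after the start, and in 35.7% of 32851 promoters. The AP-1 motif stood in 2 of the 23 (Itga9 and Itgax) and in 7.81% of all promoters, and the E-box and the TATA motif stood in none of the 23, against 7.15% and 13.6% of all promoters. None of the 4 motifs was in the windows printed for Lamb2, Lamb3 and Itgb6, which says only that these letters are not there.

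Among laminin beta genes, Lamb2 (chr9:108479736-108490530), which encodes the beta2 chain, was measured at 141, 94.4 and 82.4 CPM in Myc_Utx 2A, 2B and 2D and at 195, 294 and 179.7 CPM in Myc_p53 1, 2 and 3. Every Myc_Utx line was below every Myc_p53 line. The means were 106 ± 30.9 and 223 ± 62.0 CPM (SD, n = 3 each), a 2.10-fold lower level in Myc_Utx (log2 fold change -1.07, SE 0.27, adjusted p = 0.0481 in the edgeR test).

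Lamb3 (chr1:193207699-193343878), which encodes the beta3 chain found in laminin-332 of epithelial basement membranes, had 8, 2 and 2 counts in Myc_Utx 2A, 2B and 2D and 59, 14 and 87 counts in Myc_p53 1, 2 and 3. The groups did not overlap, but Myc_p53 line 2, at 2.59 CPM, was nearer to the Myc_Utx lines than to the other Myc_p53 lines at 9.32 and 12.4 CPM. Lamb3 was 9.84-fold lower in Myc_Utx (log2 fold change -3.30, SE 0.80, adjusted p = 0.0428 in edgeR). No Myc_Utx line reached the filter's minimum for Lamb3, so the gene entered the test only through the Myc_p53 lines, where it is high, and could not be fitted with at least 10 counts in every line. With the length and GC offsets the adjusted p in edgeR was 0.0640 for Lamb2 (log2 fold change -0.94) and 0.0525 for Lamb3 (-3.14). Leaving out any single line also ended the call of Lamb2 (adjusted p in edgeR 0.0705 to 0.147), and leaving out any single line other than Myc_p53 line 2 ended that of Lamb3 (0.0759 to 0.142), while without Myc_p53 line 2 it was 0.0251.

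Lamb1, the beta1 chain of most basement membranes, was at 45.7, 26.0 and 3.12 CPM in Myc_Utx 2A, 2B and 2D and at 90.9, 18.2 and 186 CPM in Myc_p53 1, 2 and 3. Myc_p53 line 2 was below Myc_Utx 2A and 2B, so the groups overlapped (log2 fold change -1.98, SE 1.05, adjusted p = 0.227 in edgeR). Per kilobase of gene length, Lamb2 had the highest level of the 3 beta genes in every line and made up 58.8% to 97.3% of their sum.

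Lamc1 (chr1:153218922-153332786), the gamma1 chain of most laminins, was at 226, 250.2 and 161 CPM in Myc_Utx 2A, 2B and 2D and at 296, 422 and 508 CPM in Myc_p53 1, 2 and 3. All Myc_Utx lines were below all Myc_p53 lines, with means of 212 ± 46.4 and 409 ± 107 CPM (SD, n = 3 each), and the log2 fold change of -0.94 (SE 0.25) narrowly missed the threshold (adjusted p = 0.0515 in edgeR). Lamc3 had at most 3 counts in every line.

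Lama5, the alpha5 chain of laminin-511 and laminin-521, was the highest laminin alpha gene per kilobase in every line, at 91.1% to 99.7% of the alpha sum. It was at 229.9, 181 and 137 CPM in Myc_Utx 2A, 2B and 2D and at 691, 161 and 849 CPM in Myc_p53 1, 2 and 3. Myc_p53 line 2 again lay within the Myc_Utx range (log2 fold change -1.63, SE 0.58, adjusted p = 0.102 in edgeR), and without that line the adjusted p was 0.0140 in edgeR (log2 fold change -2.07). Leaving out any other single line gave an adjusted p of 0.172 to 0.257 in edgeR.

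Lama4, the alpha4 chain of mesenchymal and vascular basement membranes, was high in Myc_p53 line 2 and low in Myc_p53 lines 1 and 3, the reverse of Lama5 among these lines. It was at 13.0, 3.93 and 13.8 CPM in Myc_Utx 2A, 2B and 2D and at 1.90, 16.5 and 1.14 CPM in Myc_p53 1, 2 and 3 (log2 fold change 0.66, SE 1.03, adjusted p = 0.679 in edgeR). Of 12 fibroblast markers, 1 was separated between the groups, and the markers did not share 1 order of lines: Col3a1 was lowest in Myc_p53 lines 1 and 3 (65 and 518 counts, against 8677 to 14680 in the other 4 lines), whereas Dcn was highest there (86 and 109 counts, against 0 to 9) and Col1a1 and Acta2 were highest in Myc_p53 line 3 (1655 and 1552 counts). The summed level was 1954 to 2736 CPM in Myc_Utx and 42.2 to 3517 CPM in Myc_p53 lines, and 134.9 to 435 and 31.9 to 796.5 CPM without Col3a1. None of the 7 fibroblast markers tested was separated, while 20.9% of all tested genes were separated with lower and 21.1% with higher levels in Myc_Utx. The part of fibroblasts in the Lama4 levels was not tested.

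Lama3, the alpha3 chain of laminin-332, had 0, 1 and 0 counts in Myc_Utx 2A, 2B and 2D and 4, 1 and 11 counts in Myc_p53 1, 2 and 3. Over the summed counts the ratio of Myc_p53 to Myc_Utx was 12.7, with an exact 95% counting interval of 1.97 to 532 that leaves out the spread between lines. Lama1 and Lama2 had at most 3 counts in every line. The alpha chains of laminin-111 and laminin-332 were therefore at or near the limit of detection in every line, since 3 counts correspond to 0.432 to 0.644 CPM here.

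Per kilobase of gene length, Lama3 was below Lamb3 in every line. Of the chains of laminin-511, Lamb1 was the lowest chain in every line (0.314 to 18.8 CPM per kb), below Lama5 (12.1 to 74.6) and Lamc1 (19.4 to 61.4). Lamb2, the beta chain of laminin-521, was at 13.5 to 48.3 CPM per kb.

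**Figure D2:**
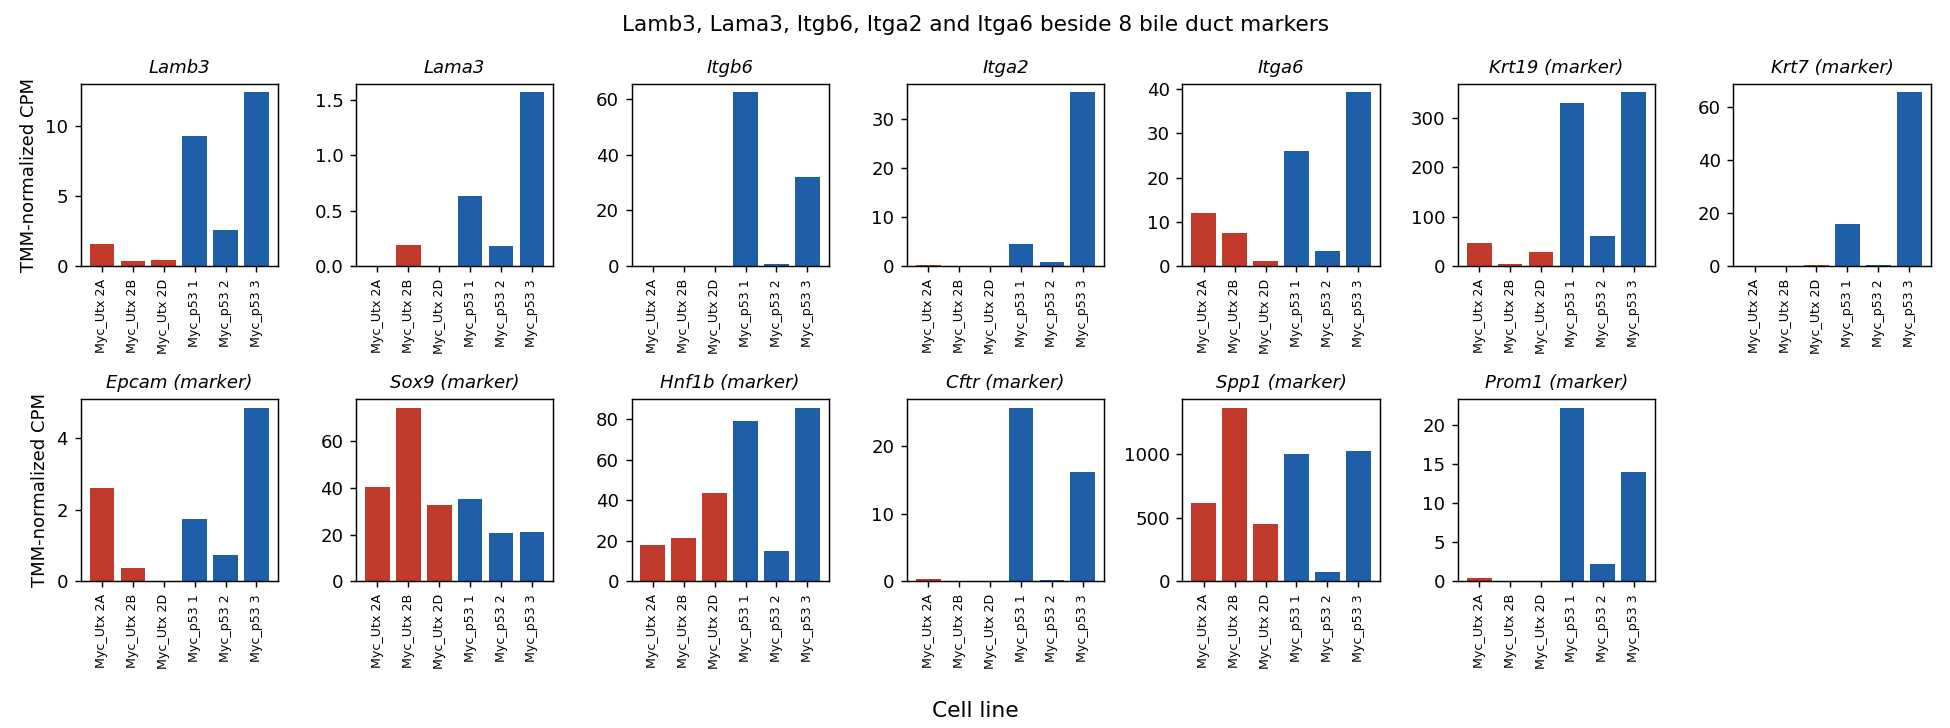
TMM-normalized CPM in each line (red bars, Myc_Utx; blue bars, Myc_p53) of Lamb3, Lama3, Itgb6, Itga2 and Itga6, beside the 8 bile duct markers examined. All of these genes were higher in Myc_p53 lines 1 and 3 than in Myc_p53 line 2, and Sox9 and Spp1 had log2 fold changes above 0 (0.94 and 0.21). The subunit genes drawn are a selection. Of the 21 tested members 9 were lowest in line 2 among the Myc_p53 lines, near the 37.3% of all tested genes. Lamb2, Lama4, Itga5, Itga10, Itgb5 and Itgb7 were highest there.

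The integrin alpha chains that bind laminin are Itga3, Itga6 and Itga7. Itga3, the main laminin receptor chain of many epithelia, was the highest alpha gene per kilobase in 5 of 6 lines and made up 27.6% to 71.7% of the alpha sum. It was at 245, 167 and 65.2 CPM in Myc_Utx 2A, 2B and 2D and at 429, 264 and 592 CPM in Myc_p53 1, 2 and 3. The groups did not overlap, with means of 159 ± 89.9 and 429 ± 164 CPM (SD, n = 3 each), but the edgeR test was not passed (log2 fold change -1.43, SE 0.51, adjusted p = 0.102).

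Itga6, whose product joins Itgb4 in the hemidesmosome, a rivet-like anchor of epithelial cells, was at 12.0, 7.49 and 1.11 CPM in Myc_Utx 2A, 2B and 2D and at 26.1, 3.52 and 39.2 CPM in Myc_p53 1, 2 and 3. Myc_p53 line 2 fell among the Myc_Utx lines (log2 fold change -1.74, SE 1.004, adjusted p = 0.263 in edgeR). Itgb4 had 5 to 23 counts per line, and its level per kilobase was below that of Itga6 in every line but Myc_Utx 2D. Itga7, a laminin receptor chain of muscle, had 4, 4 and 1 counts in Myc_Utx 2A, 2B and 2D and 9, 21 and 25 counts in Myc_p53 1, 2 and 3, which is separated, but it was too low to be tested.

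Of the collagen-binding alpha genes, Itga1 and Itga2 were separated between the groups and Itga10 and Itga11 were not. Itga1 was at 7.38, 0.749 and 1.78 CPM in Myc_Utx 2A, 2B and 2D and at 35.7, 7.78 and 24.0 CPM in Myc_p53 1, 2 and 3. Its lowest Myc_p53 value lay just above its highest Myc_Utx value (log2 fold change -2.76, SE 0.90, adjusted p = 0.0853 in edgeR).

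Itga2, the other widespread collagen receptor chain of epithelia, had 1, 0 and 0 counts in Myc_Utx 2A, 2B and 2D and 28, 5 and 248 counts in Myc_p53 1, 2 and 3. Myc_p53 line 3 held most of its reads. The ratio of the summed counts, Myc_p53 to Myc_Utx, was 223 with an exact counting interval of 39.6 to 8825. Itga2 failed the filter because Myc_p53 line 2 was low, and it had an adjusted p of 0.0275 in edgeR with no filter on low counts. Itga10 had 12 to 22 counts per line (adjusted p = 0.690 in edgeR), and another annotated gene on the same strand shares 33.5% of its exon length, so its count is uncertain. Itga11, a fibroblast collagen receptor chain, had 1 to 21 counts per line and was not tested.

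The RGD-binding alpha genes overlapped between the groups. Itga5, the fibronectin receptor chain, was at 81.4, 64.0 and 78.8 CPM in Myc_Utx 2A, 2B and 2D and at 46.9, 110.3 and 94.0 CPM in Myc_p53 1, 2 and 3 (log2 fold change -0.16, SE 0.31, adjusted p = 0.736 in edgeR). It was the highest alpha gene per kilobase in Myc_Utx 2D, at 42.9% of the alpha sum against 27.6% for Itga3. Itgav, the chain of the vitronectin receptors, was at 109.8 to 175 CPM in Myc_Utx and at 115 to 210.0 CPM in Myc_p53 lines (log2 fold change -0.24, SE 0.27, adjusted p = 0.557 in edgeR). Itga2b, the platelet fibrinogen receptor chain, had 8 to 44 counts per line (adjusted p = 0.232 in edgeR), and Itga8 had no count in any line.

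Itga4 and Itga9 bind fibronectin variants, tenascin and vascular adhesion proteins. Itga9 was at 0.199, 3.75 and 5.12 CPM in Myc_Utx 2A, 2B and 2D and at 2.21, 2.59 and 18.8 CPM in Myc_p53 1, 2 and 3 (log2 fold change -1.39, SE 1.16, adjusted p = 0.430 in edgeR). Its direction rested on Myc_p53 line 3, without which the log2 fold change was 0.31. Itga4 had 40 counts in Myc_Utx 2A, 17 in Myc_p53 line 1 and 0 to 3 in the other lines.

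**Figure D3:**
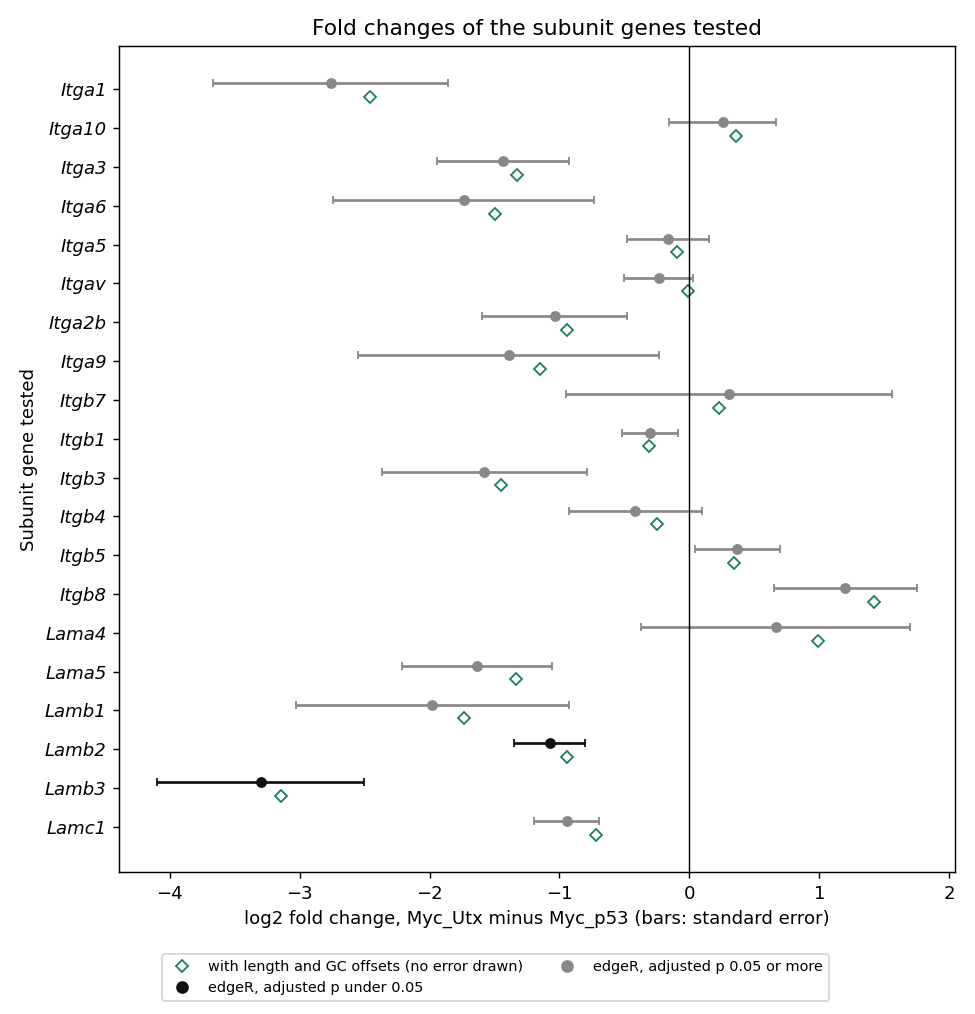
Log2 fold change of each tested subunit gene reported here, Myc_Utx minus Myc_p53, from edgeR with its standard error (circles and bars; black for Lamb2 and Lamb3, with an adjusted p under 0.05) and from the fit with length and GC offsets (diamonds). Lamb2 and Lamb3 lie below 0 and Itgb8 lies above 0 in both fits.

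Among integrin beta genes, Itgb1, the partner of most alpha chains, was the highest per kilobase in every line at 58.9% to 76.7% of the beta sum. It was at 599, 616 and 466 CPM in Myc_Utx 2A, 2B and 2D and at 563, 602 and 907 CPM in Myc_p53 1, 2 and 3. The groups overlapped, and the log2 fold change of -0.30 had a standard error of 0.22 (adjusted p = 0.362 in edgeR).

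Itgb3, Itgb5, Itgb6 and Itgb8 are among the partners of Itgav. Itgb5, the second highest beta gene in every line, was at 288, 254 and 115 CPM in Myc_Utx 2A, 2B and 2D and at 149.8, 186 and 173 CPM in Myc_p53 1, 2 and 3 (log2 fold change 0.37, SE 0.33, adjusted p = 0.459 in edgeR). Itgb3, of platelets and vessels, was at 8.58, 10.7 and 1.78 CPM and at 6.00, 25.4 and 31.9 CPM in the same order (log2 fold change -1.58, SE 0.79, adjusted p = 0.205 in edgeR). Both genes overlapped between the groups.

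Itgb6, an epithelial chain whose receptor with Itgav activates the growth factor TGF-beta, had 1, 0 and 1 counts in Myc_Utx 2A, 2B and 2D and 395, 4 and 224 counts in Myc_p53 1, 2 and 3. Myc_p53 line 2 was nearly as low as the Myc_Utx lines. The ratio of the summed counts, Myc_p53 to Myc_Utx, was 247 with an exact counting interval of 68.0 to 2043. Itgb6 too failed the filter through Myc_p53 line 2, and had an adjusted p of 0.0187 in edgeR with no filter on low counts.

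Itgb8, whose receptor with Itgav also activates TGF-beta, had the largest log2 fold change above 0 among the 21 tested genes. It was at 5.38, 18.7 and 18.7 CPM in Myc_Utx 2A, 2B and 2D and at 7.43, 3.52 and 7.56 CPM in Myc_p53 1, 2 and 3. Myc_Utx 2A lay within the Myc_p53 range (log2 fold change 1.202, SE 0.55, adjusted p = 0.175 in edgeR).

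**Figure D4:**
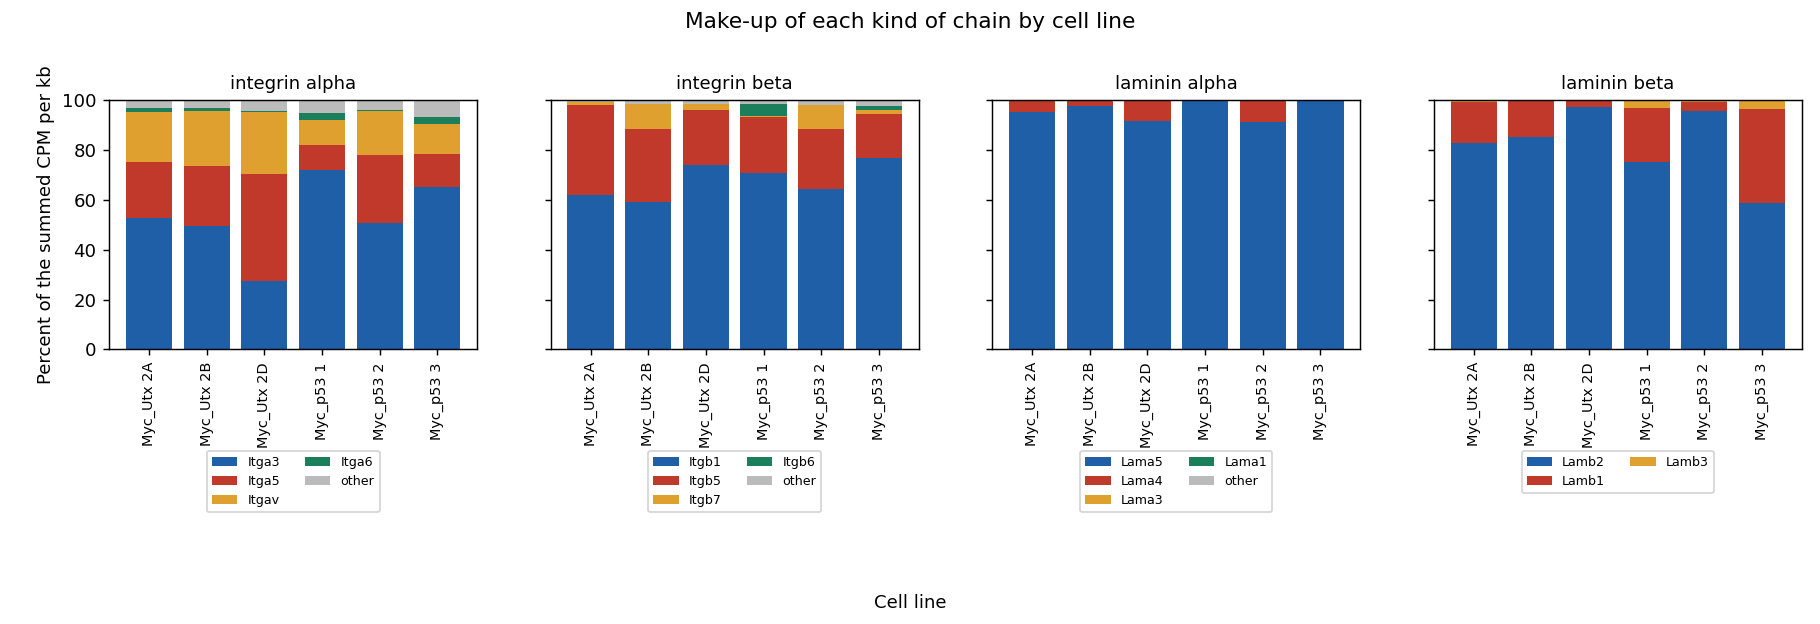
Percent of the summed TMM-normalized CPM per kilobase that each gene makes up within the integrin alpha, integrin beta, laminin alpha and laminin beta genes, 1 bar per cell line. Itgb1, Lama5 and Lamb2 lead in all 6 lines, and Itga3 leads in 5.

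The leukocyte integrin genes were low. Itgal, the alpha chain of the lymphocyte receptor LFA-1, had no count in any Myc_Utx line and 4, 4 and 9 counts in Myc_p53 1, 2 and 3, an at least 4.49-fold higher level in Myc_p53 against a floor of 3 counts over the group. Itgae, the alpha chain of intraepithelial lymphocytes, had 2, 2 and 1 counts in Myc_Utx 2A, 2B and 2D and 8, 7 and 7 in Myc_p53 1, 2 and 3. Both were separated between the groups, at levels near the limit of detection.

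Itgb2, the beta chain shared by the leukocyte receptors, had 0, 2 and 2 counts in Myc_Utx and 29, 1 and 22 counts in Myc_p53 lines. Itgax had 0 counts in Myc_Utx and 4, 1 and 2 in Myc_p53 lines, and Itgam and Itgad had at most 3 counts in every line. Most of the exon length of Itgam (68.7%) is shared with its second entry, so its reads may not have been assigned to either. Of 14 macrophage markers, 12 were separated with lower and 1 (Cd14) with higher levels in Myc_Utx. Of the 9 that were tested, 7 were separated lower and 1 higher, where 20.9% and 21.1% of all tested genes were. A marker near 0 counts in every Myc_Utx line can pass the filter only through the Myc_p53 lines, so these counts are not read against those shares. The summed level of the 14 macrophage markers was 37.6 to 56.6 CPM in Myc_Utx and 67.8 to 144 CPM in Myc_p53 lines. Without Cd14, which made up most of the Myc_Utx sums, it was 3.39 to 6.37 and 48.9 to 122.5 CPM, and Adgre1, Ptprc, C1qc, Tyrobp, Laptm5 and Spi1 had 0 counts in every Myc_Utx line. The part of such cells in these integrin levels was not tested, and fewer cells of a type and less RNA per cell cannot be told apart in bulk samples.

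Itgb7, the beta chain of gut-homing lymphocytes, was the highest of this class and varied within both genotypes. It was at 7.18, 70.4 and 11.4 CPM in Myc_Utx 2A, 2B and 2D and at 2.37, 59.5 and 10.7 CPM in Myc_p53 1, 2 and 3. Myc_Utx 2B and Myc_p53 line 2 stood above the other 4 lines (log2 fold change 0.31, SE 1.25, adjusted p = 0.881 in edgeR).

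Several members thus had low values in Myc_p53 line 2 compared with Myc_p53 lines 1 and 3. Of the 21 tested genes, 9 had their lowest Myc_p53 value in line 2 (among them Itga1, Itga3, Itga6, Lama5, Lamb1 and Lamb3), a share near the 37.3% of all tested genes. Krt19, a keratin of bile duct cells, was likewise lowest in line 2 among the Myc_p53 lines, at 46.7, 4.68 and 28.7 CPM in Myc_Utx 2A, 2B and 2D and at 330.0, 60.2 and 352 CPM in Myc_p53 1, 2 and 3. Of 8 bile duct markers, 3 (Krt19, Krt7 and Prom1) were separated between the groups, none was at 0 in every Myc_Utx line, and the summed level was 554 to 1463 CPM in Myc_Utx and 170.5 to 1578 CPM in Myc_p53 lines. Without Spp1, which made up most of the Myc_Utx sums, it was 100.5 to 108.7 CPM in Myc_Utx and 509.8, 99.7 and 559 CPM in Myc_p53 1, 2 and 3. Of the 5 bile duct markers tested, 2 were separated with lower levels in Myc_Utx, where 20.9% of all tested genes were. The part of bile duct cells, or of a bile duct state of the tumour cells, in the levels of the subunit genes was not tested.

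The count of called genes depended on how these low values were handled. DESeq2 called 9 of 28 members with an adjusted p lower in Myc_Utx (among them Itga1, Itga2, Itga3, Itgb6, Lama5 and Lamc1), against 11.1% of all genes it gave an adjusted p. edgeR with no filter on low counts called 6 of 36 (among them Itga2, Itgb6 and Lamc1), against 3.74% of all genes. Without Myc_p53 line 2, edgeR called 6 of 25 (among them Itga2, Itgb2, Itgb6 and Lama5), against 9.37% of all genes. Itga2, Itgb2 and Itgb6 entered that fit only through Myc_p53 lines 1 and 3, where they are high, so their calls followed from the filter and the count is not read against the background. In DESeq2, Itga2 and Itgb6 likewise reached an adjusted p only through their Myc_p53 counts. The DESeq2 count is therefore not read against the background either. No member was called higher in any of these fits.

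The laminins and integrins work with other matrix proteins, which were examined as a list of 30 basement membrane and integrin ligand genes. Of these, 22 were tested, 5 were lower in Myc_Utx and none was higher in edgeR, against 7.69% lower and 6.99% higher among all tested genes. The median log2 fold change of the list was -1.80 with 18 of 22 below 0, and over all tested genes it was -0.01. No gene of this list was higher at an unadjusted p under 0.05 in edgeR or among the 12 that DESeq2 called. Nid1, which encodes nidogen and links laminin to the collagen IV network, had 1, 9 and 1 counts in Myc_Utx 2A, 2B and 2D and 407, 740 and 2230 counts in Myc_p53 1, 2 and 3 (log2 fold change -7.84, SE 0.95, adjusted p = 0.0141 in edgeR). It was high in all 3 Myc_p53 lines, line 2 included. Nid1 and Col4a6 reached the filter's minimum in no Myc_Utx line. Both entered the test only through the Myc_p53 lines, where they are high, so the 5 calls are not read against the background.

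Col4a5 and Col4a6, neighbouring collagen IV chain genes, were also high in all Myc_p53 lines. Col4a5 was at 17.2, 10.5 and 7.13 CPM in Myc_Utx 2A, 2B and 2D and at 76.6, 86.0 and 66.4 CPM in Myc_p53 1, 2 and 3 (log2 fold change -2.71, SE 0.33, adjusted p = 0.0141 in edgeR). Col4a6 had 1, 6 and 1 counts and 100, 96 and 34 counts (log2 fold change -4.54, SE 0.81, adjusted p = 0.0227 in edgeR). Fbln2, which encodes a fibulin of the matrix, had 30, 49 and 24 counts and 243, 656 and 3073 counts (log2 fold change -4.86, SE 0.96, adjusted p = 0.0274 in edgeR). The fifth gene was Dag1, which encodes the laminin receptor dystroglycan (log2 fold change -0.64, adjusted p = 0.0241 in edgeR), named here after its value was seen. All 5 genes kept an adjusted p under 0.05 with the length and GC offsets.

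Of 40 genes for proteins that bind integrins inside the cell or beside them in the membrane, 33 were tested, and 4 were lower and 2 higher in Myc_Utx, with a median log2 fold change of -0.34, again against 7.69% and 6.99% of all tested genes. The lower genes were Tns1 and Tns3 (tensins, which tie integrins to actin), Lpp (a protein of focal adhesions) and Dst (dystonin, a linker to keratin filaments), at log2 fold changes of -2.71, -1.13, -1.44 and -1.25 with adjusted p of 0.0346, 0.0185, 0.0167 and 0.0206 in edgeR. Cd151, a tetraspanin that binds the laminin receptors, was at 177, 163 and 159 CPM in Myc_Utx 2A, 2B and 2D and at 74.6, 92.7 and 84.98 CPM in Myc_p53 1, 2 and 3 (log2 fold change 0.98, SE 0.12, adjusted p = 0.0141 in edgeR). Cd151 was thus separated with higher levels in Myc_Utx. Its partner Itga3 was separated with lower ones but did not pass the test (adjusted p = 0.102 in edgeR). Vasp, an actin filament protein of focal adhesions, was higher with a log2 fold change of 0.75 (adjusted p = 0.0362 in edgeR). With the length and GC offsets 2 genes of the list were lower and 2 higher, and Tns1, Dst and Vasp had adjusted p of 0.0580, 0.0606 and 0.0533 in edgeR. The higher genes were then Cd151 and Plec (adjusted p = 0.0314 in edgeR, and 0.443 without offsets), Plec being named after its value was seen. At an unadjusted p under 0.05 in edgeR, 10 genes were lower and 4 higher without the offsets, and 7 and 8 with them.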

How the data were processed

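For 6 bulk RNA-seq libraries the authors deposited 1 table of unnormalized counts per Ensembl gene. The submitters' processing notes name Trimmomatic 0.36, STAR 2.5.3a, featureCounts 1.6.3, DESeq2 1.20.0 and GRCm38 (mm10), whereas the paper's methods name HTSeq, a human build and Myc;sgMll3 lines. The labels were followed here, and the coordinates equal those of GENCODE M21 for 95.9% of genes. The deposited transcript length equals the union of exons of a gene for 95.3% of genes. Whether counting used strand is not given in the sources used here.

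The test was the quasi-likelihood one of edgeR 4.0.16 in R 4.3.3, after TMM scaling and filterByExpr at a minimum count of 10, and p was adjusted over all 11510 genes tested by the Benjamini-Hochberg method. Standard errors were obtained from each fold change and its F statistic. The common dispersion of 0.112 corresponds to a coefficient of variation of 33.4% between lines. Alternatives were other filters and scalings, DESeq2 1.42.0, offsets for length and GC content (splines with 5 degrees of freedom) and leaving out each line. The procedure was tested on simulated data.

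The members and gene lists were chosen with earlier results of these data known. Values per line are given for members with an adjusted p under 0.05, without overlap at a mean of at least 10 counts, leading their role class, or at most 3 counts in one group and above it in the other, and for chains of the trimers and receptor pairs followed. List genes are named when they passed the test, up to 4 in a direction. Counting intervals cover counting error only, at 95% confidence. A floor sets the group with no count to 3 counts and takes the other group's count as exact, so it is not such an interval. Some results are not reported here, while counts and medians cover all members. Sums of markers without their leading gene were chosen with the values in view.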

Additional observations from a re-analysis of the deposited data

How the results depend on the processing

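The count of 2 integrin and laminin genes lower in Myc_Utx was 3 with total counts only and 2 with DESeq2 size factors or at least 10 counts in every line. It was 9 with DESeq2, 6 without the low-count filter and 0 with length and GC offsets, where 7 were lower and 1 higher at an unadjusted p under 0.05. Leaving out 1 line gave 0 to 6 (0 without Myc_Utx 2A, 2B or 2D or Myc_p53 line 3, 1 without Myc_p53 line 1, 6 without Myc_p53 line 2), while calls over all genes ranged from 4 without Myc_Utx 2A to 1954 without Myc_p53 line 2. The basement membrane and ligand list had 5 calls, but 12 with DESeq2, 9 without the low-count filter and 3 under the minimum of 10 counts in each line, and 0 to 8 without 1 line (0 without Myc_Utx 2A or 2B, 1 without Myc_Utx 2D or Myc_p53 line 3, 8 without Myc_p53 line 2). The list of integrin partners had 6 calls, 12 with DESeq2 and 0 to 7 without 1 line (0 without Myc_Utx 2A, 2B or 2D, 1 without Myc_p53 line 3). The cause of these differences was not tested. The log2 fold changes of the 21 tested members kept their sign under every filter, scaling and offset in which they were fitted. Leaving out 1 line turned Itga5 (-0.46 to 0.0884, above 0 without Myc_p53 line 2), Itga9 (-1.96 to 0.31, above 0 without Myc_p53 line 3) and Itgb7 (-1.37 to 2.18, below 0 without Myc_Utx 2B, Myc_p53 line 1 or Myc_p53 line 3). No paired analysis was possible because the groups share no replicate numbers. Depth limits genes near 3 counts, such as Lama3, Itgal and Itgae.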
